A study of Mus musculus with 12 samples.

Results

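The proteasome subunit genes were read in the arcuate nucleus (ARC) of wild-type (WT) mice and of mice homozygous (Homo) for the R299Q mutation in the γ2 subunit of AMPK. The members were all genes of the table whose symbol is Psma, Psmb, Psmc or Psmd followed by a number, which gave 39 genes of 38283. RNA-seq of laser-captured ARC had been made from 5 WT and 7 Homo mice, with 1 library per mouse. All mice were freely fed males on a C57BL/6 background, aged 8 weeks. The mutation was knocked into exon 7 of Prkag2, so every tissue carries it. Levels are given in FPKM, in which fragments are scaled to transcript size and to the depth of the library, so that levels of different genes can be set side by side.

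The proteasome degrades proteins that carry ubiquitin chains. Its barrel-shaped core is built from stacked rings of alpha subunits (Psma genes), which gate the entrance, and beta subunits (Psmb genes), of which Psmb5, Psmb6 and Psmb7 encode the chymotrypsin-like, caspase-like and trypsin-like proteases. The regulatory particle on the end of the barrel recognises, unfolds and feeds in the substrate, with a ring of ATPases (Psmc genes) and further base and lid subunits (Psmd genes). In cells exposed to interferon the proteases are replaced by Psmb8, Psmb9 and Psmb10, which forms the immunoproteasome known for its part in making peptides for antigen presentation. In brain, immunoproteasome subunits have mostly been described in microglia.

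The start regions of Psmb5, Psmb6, Psmb8 and Psmb9 are shown because the catalytic genes are set against each other by genotype in what follows. Psmb7 had no RefSeq window and Psmb10 had no match to any motif searched, so the genes shown are those with a match. The stretches come from RefSeq windows on GRCm38.p6, read 5′ to 3′ on the strand of the gene, and capitals mark the letters of the motif found. The antioxidant response core TGACNNNGC, the kind of site through which Nfe2l1 and related factors act on proteasome genes, lies 47 to 39 bases before the start of Psmb5 (chr14:54618023-54618115, minus strand) and 9 to 1 bases before that of Psmb6 (chr11:70525237-70525356, plus strand). A gamma-activated core TTCNNNGAA, the kind of site used by interferon-activated STAT proteins, lies 97 to 89 bases before the start of Psmb8 (chr17:34198088-34198117, plus strand). A CCAAT box, read as ATTGG on the strand of the gene, lies 8 to 4 bases before the start of Psmb9 (chr17:34187331-34187360, minus strand). The stretches of Psmb5 and Psmb6 lie outside annotated exons, whereas those of Psmb8 and Psmb9 fall in exons of other transcripts and were kept to 30 bases. For Psmb8 and Psmb9 the RefSeq start lies inside the GENCODE gene, whose longest span begins farther upstream, so these stretches lie within the gene positions given below. The RefSeq start of Psmb5 also lies inside its GENCODE gene, and its stretch stops 28 bases before that start, at the upstream edge of the gene. Motif distances are counted from the RefSeq start.
Psmb5: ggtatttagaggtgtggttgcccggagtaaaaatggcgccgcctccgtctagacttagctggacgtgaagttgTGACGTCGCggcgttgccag
Psmb6: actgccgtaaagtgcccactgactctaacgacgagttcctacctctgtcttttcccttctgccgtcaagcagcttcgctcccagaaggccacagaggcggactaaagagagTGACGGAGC
Psmb8: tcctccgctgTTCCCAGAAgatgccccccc
Psmb9: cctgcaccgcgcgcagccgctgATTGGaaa

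Over the members, 32 had a RefSeq window of 250 bases before to 50 bases after the start. Both strands were searched for 4 motifs. TGACNNNGC was found for 5 members (Psmb5, Psmb6, Psmc6, Psmd9 and Psmd12) and in 12.4% of all 32851 windows. TTCNNNGAA was found for Psmb8 and Psmd2, against 8.3% of all windows. The interferon response core GAAANNGAAA was found for Psmb3, Psmd4 and Psmd9, against 3.44% of all windows, and for none of the 3 immunoproteasome genes. CCAAT was found for 13 members, Psmb9 among them, against 37.4% of all windows. CCAAT matches on opposite strands can share letters, as in Psmd14. These are matches of letters and carry no measurement of binding.

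In 37 of the 39 members the mean over the 12 libraries reached 1 FPKM, the minimum for testing. The others were Psma8, the testis form of an alpha subunit, which read 0 to 0.306 FPKM, and Psmb11, the thymus form of a protease, which read 0 to 0.389 FPKM. The 37 genes were above 0 in all 12 libraries, and 35 of them were above the median gene tested. Psmb4, a beta subunit without protease activity, was the highest member in 12 of 12 libraries, with 497 ± 139 FPKM in the 5 WT mice (mean ± SD) and 571 ± 116 FPKM in the 7 Homo mice. Psmb8 was the lowest member tested in 10 libraries.

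**Figure D1:**
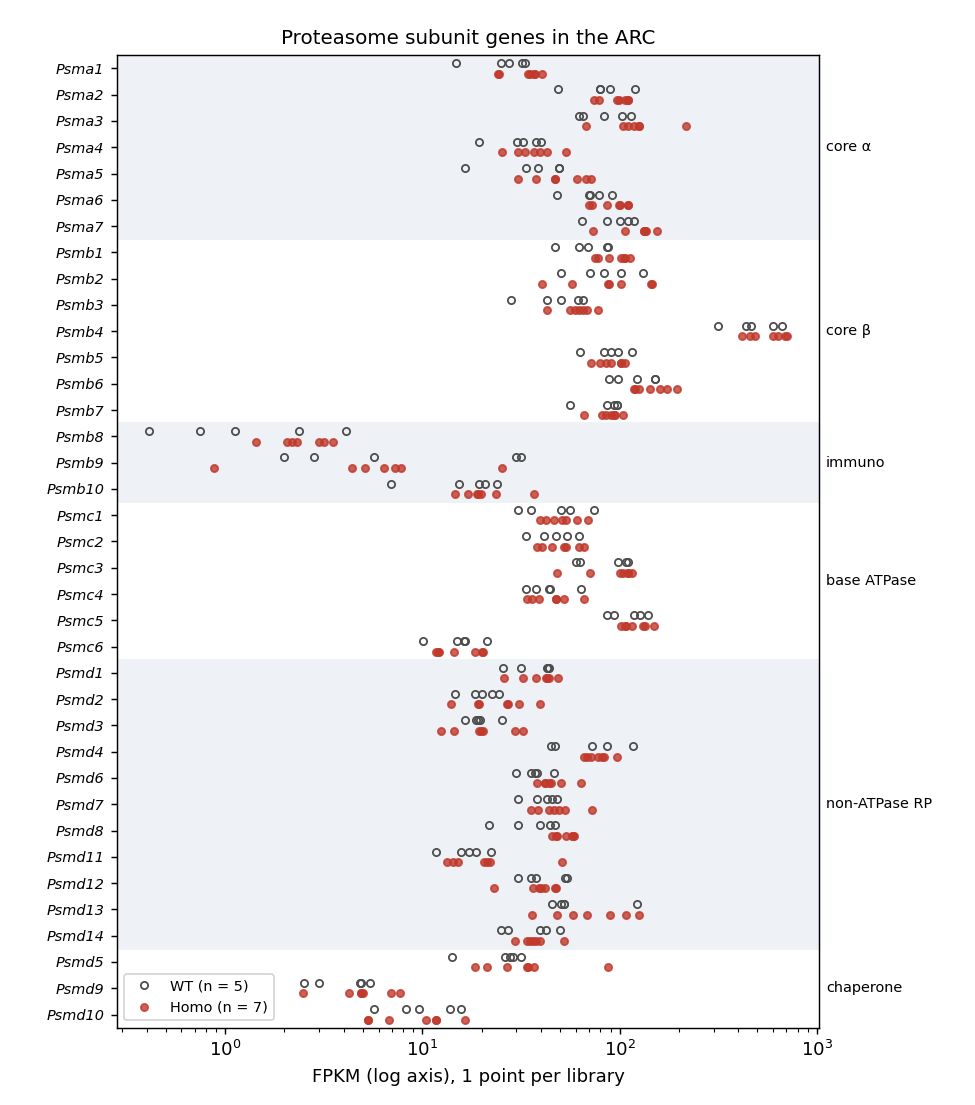
FPKM of the 37 proteasome subunit genes tested, on a log axis, with 1 point per library; open grey points are the 5 WT and filled red points the 7 Homo libraries, and genes are grouped by role (RP, regulatory particle). The constitutive subunits lay mostly between 15 and 150 FPKM with Psmb4 above them, the immunoproteasome genes lay lower, and the genotypes overlapped for every gene.

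Subunits that occur together in a ring did not have equal transcript levels. The highest mean was 3.7 times the lowest among the 7 alpha genes, 9.53 times among the 7 beta genes, 7.52 times among the 6 ATPases and 3.76 times among the 11 other regulatory-particle genes. In the beta ring this width came from Psmb4, since the other 6 genes lay between means of 56.7 and 138 FPKM. Within a gene, the highest library was a median of 2.45 times the lowest over the 37 members, compared with 3.79 times over the 11847 genes tested that were above 0 in all libraries. These groups of genes were not matched for level. The median of the gene means was 45.9 FPKM for the members and 7.57 FPKM for all genes tested.

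With respect to genotype, no proteasome subunit gene differed after correction over all 14017 genes tested. The smallest adjusted p among members was 0.799, for Psmd8 (limma, Benjamini-Hochberg). In this fit 1 gene of 14017 (0.00713%) had an adjusted p under 0.05, and it was no member. At an unadjusted p under 0.05, 2 of 37 members were higher in Homo mice (Psmd8 and Psmb1), against 3.05% of all genes tested, and 0 were lower, against 2.5%. The genotypes did not overlap for 0 of 37 members, against 0.221% of all genes tested. The number of members at an unadjusted p under 0.05 moved with single libraries. It was 1 without WT 3, WT 5, Homo 4, Homo 6 or Homo 7, and 4 without WT 1, Homo 1 or Homo 2. The number over all 14017 genes moved too. Without WT 3, 248 genes were higher and 359 lower at this limit, against 428 and 350 in the main fit. For the other fits that leave out 1 library, the numbers over all genes are not given here.

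The members nevertheless leaned one way. The log2 fold change, Homo against WT on the log2(FPKM + 1) scale, was above 0 for 33 of 37 members (89.2%) with a median of 0.22, beside 49.3% and a median of -0.0062 over all genes tested. The 4 below 0 were Psmb9, Psmd10, Psmd12 and Psmc6. Members are not replicates and their levels move together between libraries, so this lean is a description without a p-value.

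The lean was smaller without 1 library. WT 3 was the lowest of the 12 libraries for 23 of 37 members, and for 12 of the 14 constitutive core genes, whereas 14.8% of all genes tested were lowest there. The median log2(FPKM + 1) over the members was 4.98 in WT 3, compared with 5.49 to 5.58 in the other WT libraries and 5.37 to 5.77 in Homo libraries. Without WT 3 the median log2 fold change of the members was 0.068 with 23 of 37 above 0 (62.2%). Over all genes tested it was -0.047 with 43.7% above 0. WT 3 also stood apart in its marker sums and in the spread of its FPKM. It had the highest summed level of pituitary markers, at 114 FPKM, with 68.4 in WT 5, 56.4 in Homo 7 and at most 9.37 in the others. Its sums of neuron (904 FPKM), arcuate neuron (2043 FPKM), astrocyte (501 FPKM) and microglia (103 FPKM) markers were the lowest of the 12. Its ependymal and tanycyte sum (50.8 FPKM) was the highest, its blood sum (113 FPKM) was below that of WT 5 alone, and its oligodendrocyte sum (379 FPKM) was among those of the other libraries. The 10 highest genes made up most of the summed FPKM in every library. Their share was 98.1% in WT 3, the largest of the 12, and 95.9% to 97.1% in the others. The part of these differences in the proteasome values was not tested. In bulk tissue, fewer cells of a type and less RNA per cell cannot be told apart.

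The libraries also fell into 2 sets by how many genes were above 0, which the labels do not mention. WT 1, WT 2 and Homo 1 to Homo 5 had 15742 to 16467 genes above 0, and WT 3 to WT 5, Homo 6 and Homo 7 had 18141 to 18635. In the set with more genes the members' median log2 fold change was 0.41 with 36 of 37 above 0 (97.3%). Over all genes tested it was 0.13 with 64.6% above 0. In the set with fewer genes the members had 0.030 with 19 of 37 above 0 (51.4%), and all genes -0.081 with 40.1%. With the set as a term in the model the members had 0.17 with 30 of 37 above 0 (81.1%), and all genes 0.01 with 51.4%. A test of whether the genotype difference itself differed between sets left no member under an adjusted p of 0.05, with the smallest unadjusted p-values at 0.0239 for Psmd4 and 0.0265 for Psmb6 (adjusted p = 0.876 for Psmb6, limma).

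**Figure D2:**
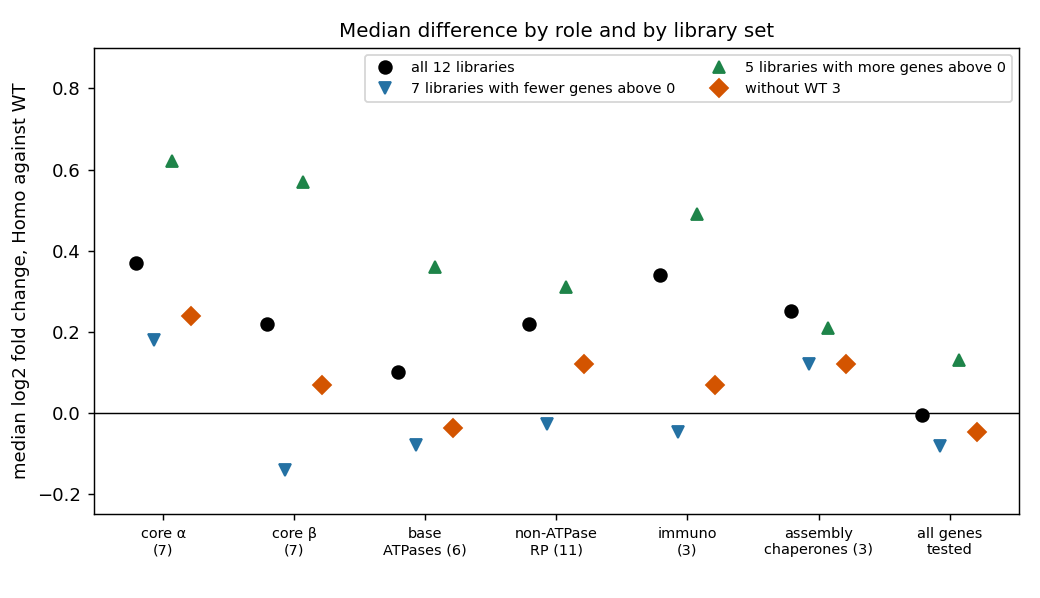
Median log2 fold change (Homo against WT) of each role group, with the number of genes in parentheses, and of all genes tested; circles are all 12 libraries, downward triangles the 7 libraries with fewer genes above 0, upward triangles the 5 with more, and diamonds all libraries without WT 3. Only the alpha ring stayed at 0.18 or more in each of the 4, and the ATPases were below 0 both without WT 3 and in the set with fewer genes.

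The alpha ring, whose subunits line and gate the entrance of the core, was the group with the highest median, 0.37 on the log2 scale, and 7 of 7 genes were above 0. It remained at 7 of 7 without WT 3 (median 0.24), and 6 of 7 were above 0 in the set with fewer genes (median 0.18). Summed over the 7 genes, the level was 433 ± 105 FPKM in the 5 WT mice (mean ± SD) and 561 ± 92.7 FPKM in the 7 Homo mice, with 6 of 7 Homo libraries above the WT median. The ranges overlapped, at 274 to 553 FPKM and 413 to 724 FPKM. No alpha gene reached an unadjusted p under 0.05.

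Psma6 (chr12:55384222-55418454) read 78.4, 69.7, 48.0, 91.3 and 70.7 FPKM in WT 1 to WT 5, and 69.8 to 111 FPKM with a median of 99.5 in Homo mice. All but WT 3 lay within or at the edge of the Homo range, and 4 Homo libraries were above every WT library. Its log2 fold change was 0.38 ± 0.19 (SE), with an adjusted p of 0.899 by limma and an exact permutation p of 0.0505 (two-sided, 792 splits). Psma3 (chr12:70974621-70996347) read 114, 83.5, 62.1, 103 and 65.3 FPKM in WT 1 to WT 5, and 67.9 to 218 FPKM with a median of 118 in Homo mice. The highest value was that of Homo 5, where the next Homo library read 126 FPKM, and Homo 1 lay among the low WT libraries. Its log2 fold change was 0.50 ± 0.25 (SE; exact permutation p = 0.0871, two-sided).

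Psma5 (chr3:108256926-108279974) read 49.2, 33.7, 16.4, 49.3 and 38.8 FPKM in WT 1 to WT 5, and 30.6 to 71.4 FPKM with a median of 47.3 in Homo mice. WT 3 was the one library far below the rest, and the log2 fold change of 0.50 became 0.24 without it. Psma7 (chr2:180036374-180042433) read 118, 111, 64.6, 100 and 86.3 FPKM in WT 1 to WT 5, and 73.1 to 155 FPKM with a median of 133 in Homo mice. Here 5 Homo libraries lay above every WT library, while Homo 1 lay below all WT libraries but WT 3, and the log2 fold change was 0.37 ± 0.21 (SE; exact permutation p = 0.101, two-sided). The other alpha genes, Psma1, Psma2 and Psma4, had log2 fold changes of 0.35, 0.25 and 0.23, which were 0.16, 0.074 and 0.068 without WT 3.

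In the beta ring, which carries the proteases, 7 of 7 genes were above 0 with a median of 0.22, but 4 of 7 without WT 3 (median 0.068) and 2 of 7 in the set with fewer genes (median -0.14). The summed level was 1003 ± 242 FPKM in the 5 WT mice (mean ± SD) and 1150 ± 185 FPKM in the 7 Homo mice. Psmb1 (chr17:15475021-15499751), a structural beta subunit, had the smallest p in this ring. It read 86.0, 69.3, 46.9, 87.7 and 62.5 FPKM in WT 1 to WT 5, and 74.7 to 113 FPKM with a median of 102 in Homo mice. All 7 Homo libraries were above the WT median, and the genotypes overlapped because WT 1 and WT 4 were above Homo 2 and Homo 3. The log2 fold change of Psmb1 was 0.45 ± 0.19 (SE), with an adjusted p of 0.892 by limma (unadjusted p = 0.0296). The exact permutation p was 0.0202 over all splits and 0.0571 within the library sets (two-sided, n = 5 and 7), and the log2 fold change was 0.31 without WT 3.

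Psmb3 (chr11:97703399-97713500), also structural, read 65.6, 42.7, 28.3, 61.3 and 50.6 FPKM in WT 1 to WT 5, and 42.7 to 77.5 FPKM with a median of 62.6 in Homo mice. The ranges overlapped over most of their width, and the log2 fold change of 0.34 became 0.16 without WT 3. Psmb4 (chr3:94884093-94886961) read 597, 465, 314, 669 and 440 FPKM in WT 1 to WT 5, and 418 to 707 FPKM with a median of 602 in Homo mice. WT 4 was above 5 of the 7 Homo libraries, and the log2 fold change was 0.22 over all libraries, -0.038 in the set with fewer genes and 0.63 in the set with more. Psmb2 had a log2 fold change of 0.067 ± 0.32 (SE).

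**Figure D3:**
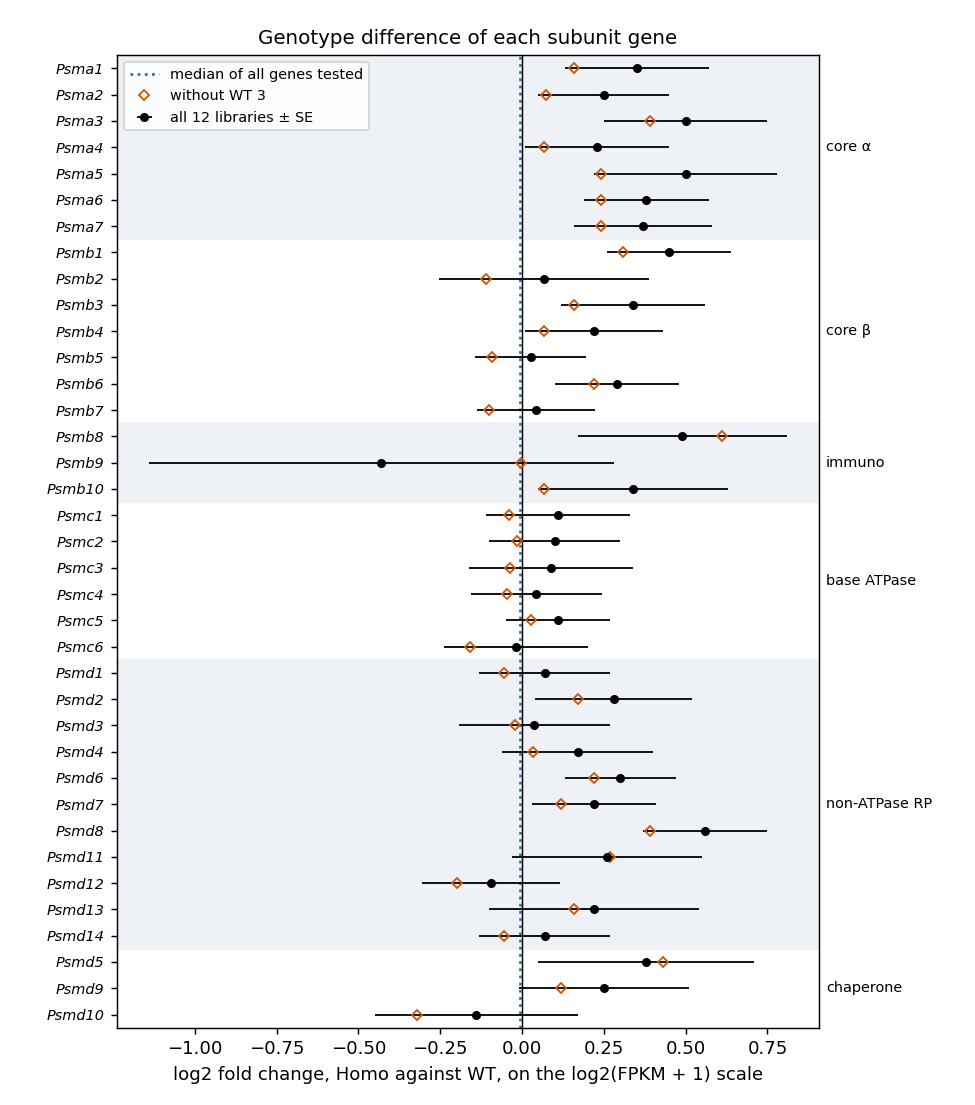
Log2 fold change (Homo against WT, log2(FPKM + 1) scale) of each of the 37 genes tested, by role; filled points are the fit over all 12 libraries with bars of 1 SE, open diamonds the value without WT 3, and the dotted line the median of all genes tested. Points lay above 0 for 33 of 37 genes, the diamonds lay closer to 0 for most, and Psmb9 had the widest bar.

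Of the 3 constitutive proteases, none passed the test, and their differences between genotypes were 0.29 (Psmb6), 0.027 (Psmb5) and 0.042 (Psmb7) on the log2 scale. Psmb6 (chr11:70525367-70527858), the caspase-like protease, read 152, 152, 97.8, 122 and 88.0 FPKM in WT 1 to WT 5, and 119 to 196 FPKM with a median of 142 in Homo mice. Homo 5, Homo 6 and Homo 7 were above every WT library, and the log2 fold change of 0.29 ± 0.19 (SE; exact permutation p = 0.146, two-sided) was -0.14 in the set with fewer genes and 0.72 in the set with more. Psmb5 (chr14:54614119-54618022), the chymotrypsin-like protease, read 116, 90.6, 63.3, 97.8 and 83.6 FPKM in WT 1 to WT 5, and 71.6 to 107 FPKM with a median of 90.3 in Homo mice. The Homo range lay inside the WT range, and the group means were 90.2 ± 19.2 FPKM for WT against 91.0 ± 13.1 FPKM for Homo mice (log2 fold change 0.027 ± 0.17, SE). Its sign turned in several settings, among them the fit without WT 3 (-0.093). Psmb7 (chr2:38588036-38644087), the trypsin-like protease, read 97.4, 97.5, 56.1, 86.7 and 93.5 FPKM in WT 1 to WT 5, and 65.7 to 104 FPKM with a median of 90.3 in Homo mice. WT 3 was again the low library, and the means of 86.2 ± 17.4 FPKM for WT against 87.8 ± 12.2 FPKM for Homo mice differed by less than either SD (log2 fold change 0.042, and -0.10 without WT 3).

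The immunoproteasome genes were expressed below their constitutive partners in every library and showed no common direction. Psmb8 (chr17:34197721-34201454), which takes the place of Psmb5, read 0.411, 4.09, 2.38, 1.12 and 0.748 FPKM in WT 1 to WT 5, and 1.43 to 3.52 FPKM with a median of 2.32 in Homo mice. The 7 Homo libraries were all above the WT median but inside the WT range, since WT 2 was the highest of the 12. Its log2 fold change was 0.49 ± 0.32 (SE; exact permutation p = 0.145, two-sided). By the longest annotated transcript its values correspond to about 3 fragments in WT 1, 11 in WT 5 and 22 in WT 4, and to 12 to 61 in Homo libraries, so both genotypes rest on few fragments.

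Psmb9 (chr17:34181987-34187764), which takes the place of Psmb6, was the most variable member. It read 2.84, 31.7, 29.9, 2.00 and 5.66 FPKM in WT 1 to WT 5, and 0.874 to 25.4 FPKM with a median of 6.37 in Homo mice. High values came from WT 2, WT 3 and Homo 5, and the other 9 libraries read 0.874 to 7.84 FPKM. The means were 14.4 ± 15.0 FPKM for WT against 8.19 ± 7.95 FPKM for Homo mice, and the log2 fold change of -0.43 ± 0.71 (SE) was 0.018 without WT 2 and -0.0019 without WT 3. Psmb9 overlaps exons of Tap1, a peptide transporter gene on the opposite strand, and the sources used here do not say that strand was kept, so reads of the pair may not be told apart. Tap1 itself was 3.09 ± 1.54 FPKM for WT against 1.43 ± 1.21 FPKM for Homo mice. By library the 2 genes did not follow each other. Tap1 read 2.95 FPKM in WT 2, 2 in WT 3 and 0.122 in Homo 5, where Psmb9 was high. Its highest value was 5.7 FPKM in WT 1, where Psmb9 read 2.84 FPKM. Like Psmb9, Psmb8 overlaps a transcript on the opposite strand.

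Psmb10 (chr8:105935735-105938444), which takes the place of Psmb7, read 24.0, 20.7, 6.95, 19.4 and 15.3 FPKM in WT 1 to WT 5, and 14.7 to 36.7 FPKM with a median of 19.1 in Homo mice. Homo 2 was the high library and WT 3 the low one, with the remaining 10 between 14.7 and 24.0 FPKM. The log2 fold change of Psmb10 was 0.34 ± 0.29 (SE), and 0.068 without WT 3.

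Set against its partner in the same library, Psmb9 was a median of 6.43% of Psmb6 in WT and 4.48% in Homo mice, with ranges of 1.64% to 30.6% and 0.501% to 13%. Psmb10 was a median of 21.2% of Psmb7 in WT and 23.3% in Homo mice. Its ranges were 12.4% to 24.7% and 14.1% to 55.9%, the last in Homo 2. Psmb8 was a median of 1.15% of Psmb5 in WT and 2.57% in Homo mice, with ranges of 0.355% to 4.51% and 1.99% to 3.76%. The ranges of the genotypes overlapped for all 3 pairs. The 3 immunoproteasome genes summed to 33.5 ± 14.7 FPKM in the 5 WT mice (mean ± SD) and 32.2 ± 10.6 FPKM in the 7 Homo mice. The summed level of 12 microglia markers was 103 to 168 FPKM in WT and 166 to 262 FPKM in Homo libraries. Of these markers 12 of 12 had log2 fold changes above 0, with a median of 0.39, or 0.28 without WT 3. At an unadjusted p under 0.05 by limma, 4 were higher and 0 lower, against 3.05% and 2.5% of all genes tested. The part of microglia in the immunoproteasome values was not tested.

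**Figure D4:**
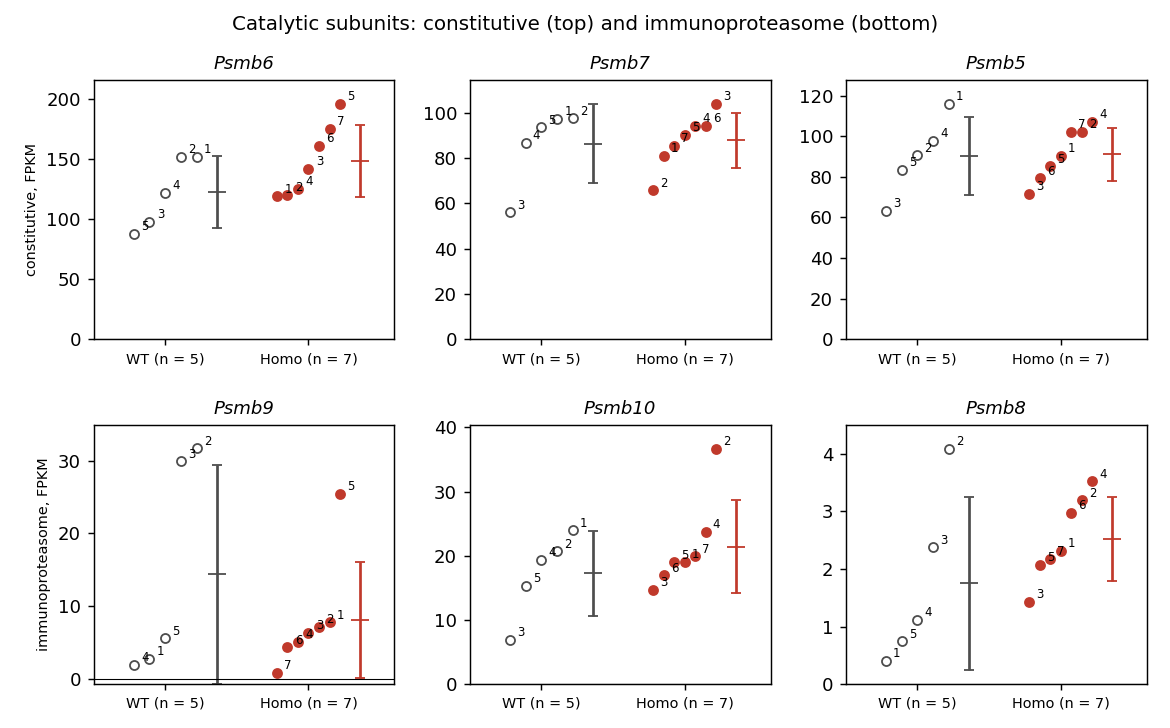
FPKM of the constitutive proteases (top) and of the immunoproteasome subunit that replaces each (bottom) in 5 WT (open grey) and 7 Homo (red) libraries, numbered by mouse, with the mean and SD beside the points; each panel has its own linear axis. Psmb5 and Psmb7 had like means in both genotypes, Psmb9 was high in WT 2, WT 3 and Homo 5, and Psmb10 was high in Homo 2.

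The ATPase ring, which unfolds substrates, had the lowest median of the constitutive groups over all 12 libraries, though not in either library set alone or with the set in the model. The 6 genes had log2 fold changes between -0.018 (Psmc6) and 0.11 (Psmc1 and Psmc5) with a median of 0.10, and without WT 3 1 of 6 was above 0. The summed level was 358 ± 62.8 FPKM in the 5 WT mice (mean ± SD) and 380 ± 45.4 FPKM in the 7 Homo mice. Psmc5 was the highest ATPase, with 113 ± 22.2 FPKM for WT against 121 ± 17.6 FPKM for Homo mice. Psmc6 was the lowest, with 15.8 ± 3.97 FPKM and 15.6 ± 3.89 FPKM.

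Among the 11 other genes of the regulatory particle, 10 were above 0 with a median of 0.22, and 7 without WT 3 (median 0.12). Psmd8 (chr7:29174188-29180701), a lid subunit, had the smallest p of all members. It read 47.0, 44.6, 21.7, 39.4 and 30.6 FPKM in WT 1 to WT 5, and 45.3 to 58.6 FPKM with a median of 53.7 in Homo mice. All 7 Homo libraries were above the WT median, and the genotypes overlapped only through WT 1, which was above Homo 6. The means were 36.6 ± 10.5 FPKM for WT against 52.7 ± 5.59 FPKM for Homo mice. The log2 fold change of Psmd8 was 0.56 ± 0.19 (SE), with an adjusted p of 0.799 by limma (unadjusted p = 0.0120). The exact permutation p was 0.00253 over all splits, of which the smallest possible is 0.00126, and 0.0190 within the library sets (two-sided, n = 5 and 7). Without WT 3 the log2 fold change was 0.39, and it was 0.26 in the set with fewer genes and 0.63 in the set with more.

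Psmd6 (chr14:14112174-14120984), another lid subunit, read 46.3, 35.7, 29.7, 37.4 and 38.0 FPKM in WT 1 to WT 5, and 38.3 to 63.8 FPKM with a median of 43.7 in Homo mice. All 7 Homo libraries were above the WT median and WT 1 alone stood among them, and the log2 fold change was 0.30 ± 0.17 (SE; exact permutation p = 0.0442 over all splits and 0.105 within sets, two-sided). The ubiquitin receptor Psmd4 had a log2 fold change of 0.17, and the deubiquitinase Psmd14, which removes the chain, one of 0.069. The scaffold genes Psmd1 and Psmd2 had 0.070 and 0.28, and the lid genes Psmd3, Psmd7, Psmd11, Psmd12 and Psmd13 had 0.038, 0.22, 0.26, -0.095 and 0.22. None of these 9 had an unadjusted p under 0.05. The assembly chaperones of the base, which are not part of the finished particle, had log2 fold changes of 0.38 (Psmd5), 0.25 (Psmd9) and -0.14 (Psmd10). That of Psmd5 included 87.7 FPKM in Homo 5, above 14.2 to 36.7 FPKM in the other 11 libraries.

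**Figure D5:**
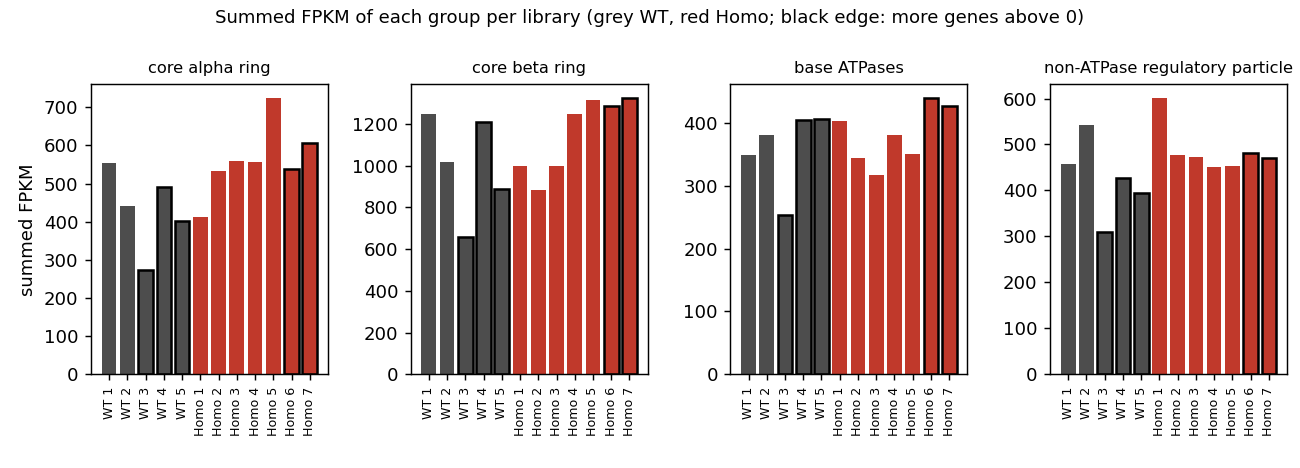
Summed FPKM of the genes of each ring or group in each of the 12 libraries, grey for WT and red for Homo, with a black edge on the 5 libraries that had more genes above 0; each panel has its own axis from 0. WT 3 was the lowest library in each panel, at 274, 657, 254 and 309 FPKM from left to right.

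Other genes of the pathway were read from 6 lists, whose medians ran from -0.38 to 0.17. All 6 core assembly factors were above 0 (median 0.17), beside 49.3% of all genes tested, with none at an unadjusted p under 0.05. In the set with fewer genes all 6 were below 0, from -0.93 (Psmg1) to -0.011 (Pomp). In the set with more genes all 6 were above 0. Without WT 3 their median was 0.082, with Psmg1 at -0.26 and Psmg3 at -0.032. The main factor, Pomp, was 195 ± 16.5 FPKM for WT against 221 ± 37.9 FPKM for Homo mice. Of the 5 activators and inhibitor of the core, 1 was above 0 (median -0.38) and none had an unadjusted p under 0.05. Among them the interferon-inducible activator genes Psme1 and Psme2 had log2 fold changes of 0.021 and -0.12, and the proteasome activator gene Psme4 had -0.68 ± 0.38 (SE).

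Of 15 other regulatory-particle and proteasome-bound genes tested, Shfm1, a small lid subunit, was higher (log2 fold change 0.51, unadjusted p = 0.0267 by limma) and AI314180, the mouse gene of an adaptor that binds proteasomes, was lower (-0.49, unadjusted p = 0.0319 by limma). Both had adjusted p-values of 0.887 or more, and the list's median was 0.052. These were the only genes of the list at an unadjusted p under 0.05, 1 higher and 1 lower of 15. Over all genes tested the shares were 3.05% and 2.5%, so these counts are not read as changes. Of the 6 ubiquitin and E1 genes (median 0.17), 1 was higher and 0 lower at an unadjusted p under 0.05, against the same shares. The gene was Rps27a, which encodes ubiquitin fused to a ribosomal protein (log2 fold change 0.67, unadjusted p = 0.0195, adjusted p = 0.854 by limma). It read 199 ± 85.6 FPKM for WT against 297 ± 50.7 FPKM for Homo mice, with 100 FPKM in WT 3. The 8 tested genes of the Nfe2l1 pathway, which adjusts proteasome gene transcription, had a median of 0.0037 with 4 above 0 and none at an unadjusted p under 0.05. Nfe2l1 itself was 123 ± 34.9 FPKM for WT against 106 ± 31.4 FPKM for Homo mice.

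The 16 antigen presentation and interferon genes tested had a median of 0.0074 with 8 above 0. Of these, 1 was higher and 1 lower at an unadjusted p under 0.05 by limma, against 3.05% and 2.5% of all genes tested. In a list this short, these counts are not read as changes. The higher gene was Tap2 (log2 fold change 1.65, unadjusted p = 0.00523, adjusted p = 0.763 by limma). The lower was Tap1 (-0.86, unadjusted p = 0.0437, adjusted p = 0.899 by limma), its partner in 1 peptide transporter. The values of Tap1 carry the limit given above for its overlap with Psmb9. Tap2 read 0 to 1.92 FPKM in WT and 0.607 to 14.8 FPKM in Homo libraries.

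The remaining marker lists described the tissue captured. Medians of the log2 fold change were 0.094 for 8 neuron, 0.42 for 10 arcuate neuron, 0.23 for 8 astrocyte, 0.37 for 8 oligodendrocyte, 0.17 for 8 endothelial, -0.24 for 7 ependymal and tanycyte, -0.47 for 3 blood and -1.14 for 2 pituitary markers tested. Without WT 3 these medians were -0.022 for neuron, 0.15 for arcuate neuron, 0.13 for astrocyte, 0.61 for oligodendrocyte, 0.14 for endothelial, -0.17 for ependymal and tanycyte, -0.24 for blood and -0.15 for pituitary markers. The defining arcuate transcripts Agrp, Npy and Pomc were present, with a summed arcuate list of 2043 to 6686 FPKM in WT and 4810 to 6811 FPKM in Homo libraries. Prkag2 was 14.6 ± 5.43 FPKM for WT against 14.8 ± 4.88 FPKM for Homo mice, a level that does not check the labels since the mutation changes 1 codon.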

How the data were processed

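RNA had been taken from laser-captured ARC (14 μm sections), amplified as whole transcriptome and fragmented to 200 bases for a library from each mouse. The authors deposited 1 table, of FPKM values, with 38283 genes. The submitters' processing notes name TopHat2 2.0.8, Cufflinks 2.2.1 and GRCm38, with no role or order; any scaling beyond FPKM and the use of strand are not given in the sources used here. All 12 columns were matched to mice by their labels.

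FPKM are not counts, so log2(FPKM + 1) was tested with limma 3.58.1 in R 4.3.3 (eBayes, trended prior, robust option) with no covariate besides genotype, over the 14017 genes that averaged 1 FPKM or more, and p-values were adjusted by Benjamini-Hochberg. Single genes were also tested by exact two-sided permutation over all 792 assignments of genotype to libraries, or 210 when kept within the library sets. Scripts were tested on simulated data. The members, roles, lists and motifs were chosen with earlier results of these data known.

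Values in each WT library, with the range and median of the Homo libraries, are given for the constitutive and immunoproteasome proteases, the 8 members with the smallest unadjusted p and the highest and lowest members. Up to 4 genes per list were named by smallest unadjusted p; Pomp, Psme1, Psme2 and Nfe2l1 were named for their role. Positions are from GENCODE mouse release M21 and all 39 members were matched. The table lists 3 processed pseudogenes of members, which read at most 0.496 FPKM. Exons of Psma4, Psma5, Psmb7, Psmb8, Psmb9, Psmc3, Psmd1, Psmd3, Psmd9 and Psmd13 overlap a gene on the opposite strand, and these values are uncertain to that extent. Library depth is not stated; from the spacing of low values, 1 fragment per kilobase of transcript was worth about 0.0851 to 0.324 FPKM. Replicates are separate mice. Replicate numbers were shared by WT and Homo mice 1 to 5, but the labels do not say that they pair the mice.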

Additional observations from a re-analysis of the deposited data

Results flagged for a closer look

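In 5 of 32 sets of libraries tested for a single library far from the rest, 1 library stood apart. The rate of about 1 flag in 20 sets by chance holds for independent, normally spread values. Members move together between libraries, so the 5 flags are not set against that rate. In WT mice, Psmb7 read 56.1 FPKM in WT 3 and 86.7 to 97.5 FPKM in the others, and the median log2(FPKM + 1) of the members was 4.98 in WT 3 and 5.49 to 5.58 in the others. In Homo mice, Psma3 read 218 FPKM in Homo 5 and 67.9 to 126 FPKM in the others. Psmb9 read 25.4 FPKM in Homo 5 and 0.874 to 7.84 FPKM in the others. Psmb10 read 36.7 FPKM in Homo 2 and 14.7 to 23.7 FPKM in the others. The cause was not tested for any of the 5.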

How the results depend on the processing

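The median log2 fold change of the members was above 0 in all 22 alternatives, from 0.030 in the libraries with fewer genes above 0 to 0.41 in those with more; leaving out 1 library gave 0.068 (without WT 3) to 0.26. The number of members at an unadjusted p under 0.05, 2 as reported, was 5 with array weights, 4 with upper-quartile scaling and 0 among libraries with fewer genes above 0. It was 1 to 4 when 1 library was left out. For array weights and upper-quartile scaling, the numbers over all genes are not given here. Over all genes tested, 209 were higher and 629 lower at this limit among libraries with fewer genes above 0. Among those with more, 566 were higher and 144 lower, against 428 and 350 as reported. The member counts are therefore not read as changes in the members. No member reached an adjusted p under 0.05 in any of the 22 alternatives, and the smallest was 0.617 without WT 1. Genes of the whole table at an adjusted p under 0.05 numbered 6 among libraries with fewer genes above 0, 19 among those with more, and 1 to 3 when 1 library was left out, compared with 1 as reported.

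Of 329 recomputed log2 fold changes of the 15 named genes, 14 turned sign, in 6 genes. Psmb5 turned to -0.024 with the library set in the model and -0.18 in the libraries with fewer genes above 0, where Psmb6 was -0.14, Psmb7 -0.18, Psmb10 -0.046 and Psmb4 -0.038. Leaving out 1 library gave -0.093 to 0.12 for Psmb5, -0.10 to 0.11 for Psmb7 and -0.84 to 0.018 for Psmb9. The fit with the replicate number as a block, over mice 1 to 5 of each genotype, gave 2 genes of the whole table at an adjusted p under 0.05, 2 members at an unadjusted p under 0.05 and 0.034 for Psmb9. Deviations of same-numbered mice correlated at -0.054 to 0.029 and no WT library correlated best with its own number. WT 3 to WT 5 and Homo 3 to Homo 5 lay in different library sets, so this check cannot exclude a pairing. Within each genotype the numbers follow the library sets. WT 1, WT 2 and Homo 1 to Homo 5 had fewer genes above 0, and the later numbers had more. The titles of Homo 6 and Homo 7 are also worded differently from those of Homo 1 to Homo 5. The cause of these changes was not tested. Depth limits Psmb8, estimated to rest on 3 to 61 fragments per library.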
